A study of Mus musculus with 107 samples.

Results

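Grafts of neural progenitor cells (NPC) in double crush spinal cord injury (dSCI) were compared with grafts of the same cells in uninjured spinal cord, both recovered at 14 d. The libraries were chosen by the titles of the deposited samples, which gave 5 for each environment, 10 of the 107 libraries of the series. The study made NPC from mouse embryonic stem cells, placed them in cord with different degrees of damage, and sequenced the RNA on their ribosomes to ask how the surrounding tissue shapes the cells that a graft yields. Grafts in a single crush (SCI), also 5 libraries at 14 d, are used here beside this comparison.

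The grafted cells of all 3 environments came from 1 female stem cell line on the C57BL/6 strain, with the genotype RiboTag + in the labels, so all grafted cells descend from that line. RiboTag is a haemagglutinin tag on the ribosomal protein Rpl22, switched on by Cre in all cells of the line, which lets ribosomes of grafted cells be pulled out of a piece of cord with an antibody. NPC were induced with retinoic acid and the hedgehog agonist purmorphamine, expanded in EGF and FGF, and injected in a hydrogel. Uninjured hosts had no crush, and SCI hosts had 1 forceps crush of the thoracic cord. Hosts of dSCI grafts had a double crush, which the study describes as leaving a larger core without neural tissue. By the study's account, cells were placed in crush lesions days after the injury. For SCI grafts it counts the time to recovery both from injury and from grafting. Grafts in crushed cord may therefore be some days younger than those in uninjured cord, and the part of this in the differences was not tested. Hosts were young adult C57BL/6 mice, a mouse for each library by the study's account, and the labels name no animals. The p-values below therefore measure the spread between these libraries. RNA of host cells can come through the antibody step, although the study reports that SCI cord without tagged cells gave little RNA. In bulk samples fewer cells of a type and less RNA per cell cannot be told apart.

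After a crush, blood-borne macrophages and fibroblasts fill the core of the lesion while astrocytes around it become reactive, a state marked by secreted acute-phase proteins, complement and matrix regulators. NPC of this kind can yield astroglia and oligodendroglia, and the oligodendroglial path runs from progenitors that use Olig1, Olig2 and Sox10 to myelin-forming cells. Neural cells make their own cholesterol, since lipoproteins of the blood do not pass into the cord, and the enzymes of that pathway are switched on together by the transcription factor that Srebf2 encodes.

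The counts of the 27179 genes listed summed to 44385710–90830404 in dSCI grafts, 66310464–85474297 in uninjured grafts and 40506790–77335841 in SCI grafts. In dSCI replicate 5, 35.0% of the counts fell on the gene with NCBI identifier 100861531, which had no name in the tables used here, against 4.08–5.67% in the other dSCI grafts and 3.00–4.54% in uninjured grafts. SCI replicate 5 held 25.0% of it. The dSCI replicate 5 library also stood apart in its profile. Its log2 levels correlated with those of the other dSCI grafts at a mean r of 0.918, with SCI grafts at 0.921 and with uninjured grafts at 0.910. Reads of 4 Y-linked genes numbered 0 in each dSCI graft and at most 2 in each uninjured graft, and the sex of these hosts is not labelled, so they give no measure of host RNA. Counts over the main gene lists are given below with and without dSCI replicate 5, and values of the 5 libraries of a group stand in replicate order.

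Between dSCI and uninjured grafts, 666 genes among the 15906 tested (4.19%) were differentially expressed (DEGs), defined as an adjusted p below 0.01 in edgeR's quasi-likelihood test with Benjamini-Hochberg adjustment. Of these, 405 (2.55%) were higher and 261 (1.64%) lower in dSCI, and the median log2 fold change (log2FC, dSCI minus uninjured) over all tested genes was −0.02. Levels are given as CPM, counts divided by library size and scaled for library composition. The count was 864 (510 higher, 354 lower) without dSCI replicate 5, with 593 genes shared, and 689 without the gene of largest share. It fell to 355, 215, 436 and 299 without uninjured replicates 1 to 4, to 427, 197, 223 and 425 without dSCI replicates 1 to 4, and to 593 without uninjured replicate 5. The libraries of the groups did not overlap for 953 genes higher in dSCI (5.99% of those tested) and 842 lower (5.29%).

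**Figure D1:**
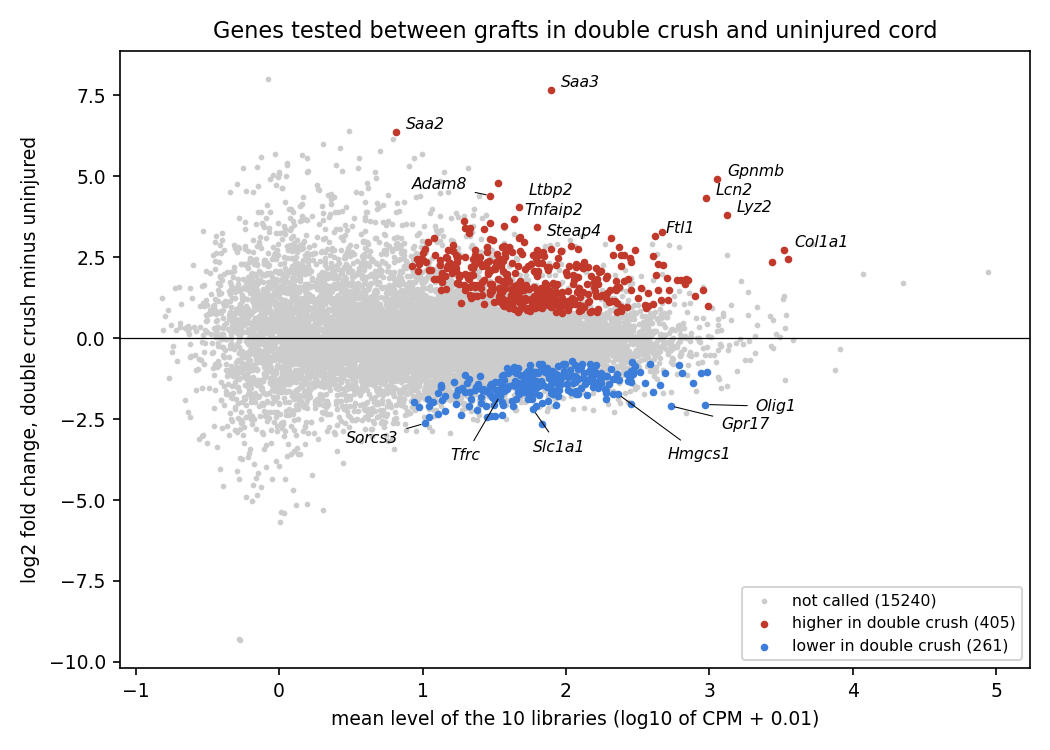
Each point is 1 of the 15906 genes tested, with its mean level over the 10 libraries (x axis, log10 of CPM + 0.01) and its log2FC of dSCI over uninjured grafts (y axis); coloured points are the 405 higher and 261 lower DEGs. The increases reach further from 0 than the decreases, from Saa3 at 7.66 to Sorcs3 at −2.63 among the named genes.

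The largest increases were led by acute-phase genes. The genes of largest increase and decrease were chosen among DEGs whose groups did not overlap, so for those genes the separation follows from the choice. Saa3 (chromosome 7, 46711998–46719615 on GRCm38) encodes a serum amyloid A protein made by many cells in inflammation. It stood at 404, 90.6, 58.3, 213 and 11.3 CPM in dSCI replicates 1 to 5 and at 0.0209, 1.14, 0.0250, 0.0253 and 2.53 CPM in the uninjured replicates. All dSCI grafts lay above all uninjured grafts, with the lowest dSCI value in replicate 5 (log2FC 7.66, SE 1.38, adjusted p = 0.0045). The related Saa2 (chromosome 7, 46751833–46754313) was at 10.5, 14.8, 30.0, 3.10 and 5.86 CPM in dSCI and 0, 0.543, 0.0250, 0 and 0.202 CPM in uninjured grafts, again without overlap (log2FC 6.36, SE 1.34, adjusted p = 0.0092). Reads of Saa2 and its near copy Saa1 cannot be fully separated in these counts. The call of Saa3 held in 6 of 10 fits that left out 1 library, and that of Saa2 in 2 of 10. Their largest adjusted p values in those fits were 0.015 (without uninjured replicate 2) and 0.035 (without dSCI replicate 3).

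Lcn2 (chromosome 2, 32384637–32387739), the iron-siderophore carrier lipocalin 2 and a classic marker of reactive astrocytes, was at 967, 2068, 4269, 414 and 1265 CPM in dSCI and 185, 93.5, 77.7, 65.5 and 36.7 CPM in uninjured grafts. Its mean was 19.6-fold higher in dSCI (log2FC 4.31, SE 0.62, adjusted p = 0.0016), without overlap, and it was a DEG in all 10 fits that left out 1 library. SCI grafts stood at 6248, 6662, 8721, 4669 and 3979 CPM, where replicate 5 alone lay below the highest dSCI graft, and the difference between dSCI and SCI did not pass the threshold (log2FC −1.76, SE 0.49, adjusted p = 0.04). Steap4 (chromosome 5, 7960472–7982213), a membrane metalloreductase, was at 159, 122, 158, 68.1 and 71.5 CPM in dSCI and 4.77, 11.9, 8.69, 18.9 and 9.15 CPM in uninjured grafts. It was 10.8-fold higher, without overlap (log2FC 3.44, SE 0.38, adjusted p = 0.00049). SCI grafts stood at 152, 114, 145, 129 and 94.0 CPM, within the span of the dSCI grafts (log2FC −0.14, SE 0.26, adjusted p = 0.81).

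Of 28 genes listed for astrocyte reactivity, 14 rose, against 2.55% of all genes tested, and none fell, and the median log2FC of the list was 1.22 against −0.02 over all genes tested. The 14 included Timp1, a metalloproteinase inhibitor (from 40.1 ± 11.1 CPM to 195 ± 74.9 CPM, SD, n = 5 each), Cp, the copper carrier ceruloplasmin (from 304 ± 92.9 CPM to 1068 ± 415 CPM), Serping1, the inhibitor of the complement C1 protease (from 268 ± 82.4 CPM to 924 ± 387 CPM), and Osmr, the receptor for oncostatin M (from 55.8 ± 16.0 CPM to 131 ± 46.4 CPM). Id3 (chromosome 4, 136143822–136145392), an inhibitor of helix-loop-helix transcription factors, had the lowest adjusted p of the list and was at 325, 309.7, 381, 261 and 221 CPM in dSCI and 85.3, 83.0, 82.1, 78.1 and 85.9 CPM in uninjured grafts (log2FC 1.86, SE 0.17, adjusted p = 0.00018). The uninjured grafts lay close together, at 78.1–85.9 CPM, and well apart from the dSCI grafts, at 221–381 CPM. Gfap, the intermediate filament that defines astrocytes, was at 4274, 7498, 8511, 6022 and 9552 CPM in dSCI and 12788, 8759.7, 10239, 7782 and 6528 CPM in uninjured grafts, and the groups overlapped (log2FC −0.35, SE 0.30, adjusted p = 0.56). Gfap thus did not pass the threshold while 14 other genes of the list did. Id3, Myoc, Chil1, Timp1 and Tgm1 of this list are also among the genes that the study names for tissue environment. The study chose those on libraries that include these, so here they are not independent evidence. It also places Id3, Myoc and Chil1 among healthy astrocyte and border genes. The number of the 28 genes that rose was 13 without dSCI replicate 5. It was 5, 7, 6 and 8 without uninjured replicates 2 to 5, and 9, 5 and 6 without dSCI replicates 1 to 3. Saa3 and Lcn2 are made by myeloid cells as well as astrocytes, and the part of the myeloid markers described below in these rises was not tested. Of 27 genes for the support functions of astrocytes, 2 fell, against 1.64% of all genes tested, among them Slc7a10, an amino acid transporter (from 47.6 ± 24.5 CPM to 13.4 ± 5.91 CPM). The call of Slc7a10 was lost in every fit that left out 1 library, with a largest adjusted p of 0.031.

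**Figure D2:**
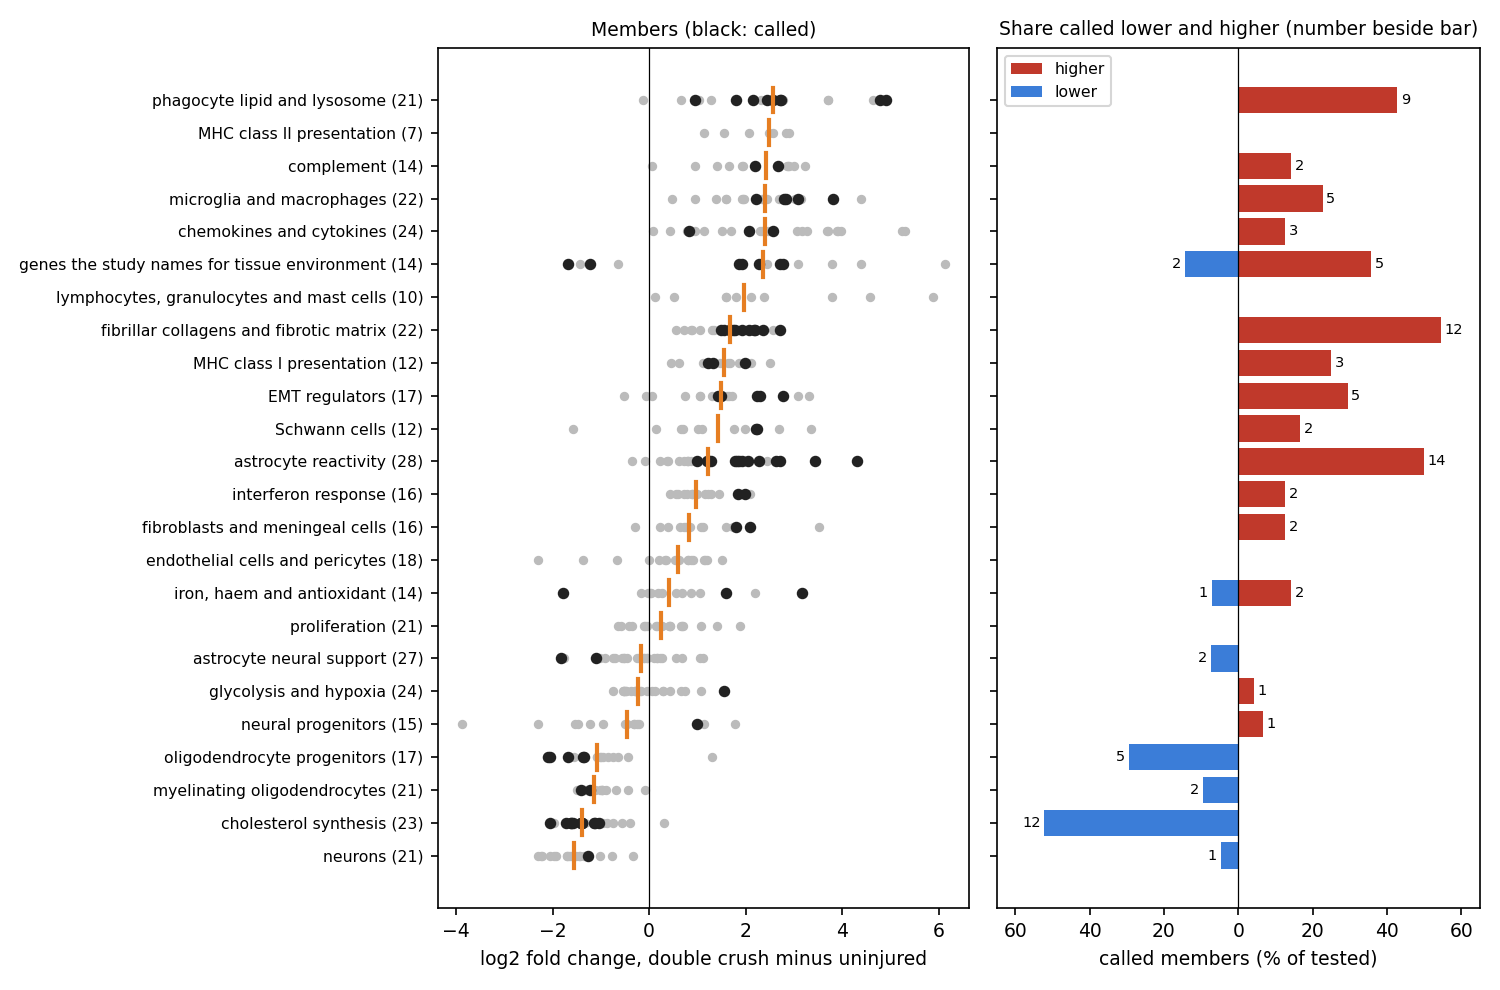
Log2FC of dSCI over uninjured grafts for every tested member (points) of 24 gene lists, with called members in black and the list median as an orange line, and beside it bars for the share of tested members called lower and higher (%), with their number. Collagen, phagocyte, complement and reactivity lists lie to the right of 0, with medians of 1.68, 2.58, 2.43 and 1.22, and oligodendrocyte and cholesterol synthesis lists to the left, with −1.08, −1.14 and −1.38.

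A second set of large increases was made of genes that phagocytes use. Gpnmb (chromosome 6, 49036518–49058182), a glycoprotein of lipid-laden macrophages and microglia, stood at 825, 2658, 1680.3, 5319 and 505 CPM in dSCI and 64.9, 78.7, 27.0, 35.6 and 158 CPM in uninjured grafts. Replicate 4 was the highest and replicate 5 the lowest of the dSCI grafts, and all were above all uninjured grafts (log2FC 4.90, SE 0.71, adjusted p = 0.0016). Adam8, a protease of myeloid cells, was at 35.9, 65.2, 57.7, 101 and 23.7 CPM in dSCI and 0.710, 1.32, 2.11, 1.39 and 7.81 CPM in uninjured grafts (log2FC 4.40, SE 0.66, adjusted p = 0.0019). Its order across the dSCI grafts resembled that of Gpnmb, with replicate 4 highest and replicate 5 lowest. Both were DEGs in all 10 fits that left out 1 library. Atp6v0d2, a subunit of the proton pump of lysosomes, and Lyz2, the lysozyme of macrophages, were DEGs over all libraries (log2FC 4.79, SE 0.86, adjusted p = 0.0045 and log2FC 3.81, SE 0.76, adjusted p = 0.0072) and in 5 of 10 and 3 of 10 of the fits that left out 1.

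Of 21 tested genes of phagocyte lipid handling and lysosomes, 9 rose, against 2.55% of all genes tested, and none fell (median log2FC 2.58). Abca1 (chromosome 4, 53030789–53159988), which exports cholesterol from cells, was at 367, 419, 423, 318 and 641 CPM in dSCI and 99.7, 50.6, 78.8, 74.6 and 63.3 CPM in uninjured grafts, with no overlap and with replicate 5 the highest dSCI graft (log2FC 2.58, SE 0.24, adjusted p = 0.00018). Plin2, a coat protein of lipid droplets, was at 118, 180, 185, 297 and 99.1 CPM in dSCI and 67.1, 48.5, 45.4, 45.2 and 46.3 CPM in uninjured grafts (log2FC 1.81, SE 0.27, adjusted p = 0.0019). Lpl, which frees fatty acids from lipoproteins, rose from 24.3 ± 15.7 CPM to 159 ± 51.2 CPM (log2FC 2.70, SE 0.43, adjusted p = 0.0028). Abca1 and Plin2 were called in all 10 fits that left out 1 library and Lpl in 9 of 10. Ctsd, Lgals3, Clec7a and Axl made up the rest of the 9 with Gpnmb and Atp6v0d2, and Spp1 and Mmp12, also markers of such cells, did not pass the threshold (log2FC 2.58, SE 0.64, adjusted p = 0.02 and log2FC 3.71, SE 1.06, adjusted p = 0.039).

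Markers of microglia and macrophages were also higher in dSCI grafts. The summed level of 22 such markers was 2777, 7239, 4853, 16124 and 2518 CPM in dSCI replicates 1 to 5 and 934, 858, 308, 466 and 2289 CPM in uninjured replicates 1 to 5, so that the groups did not overlap and dSCI replicate 4 stood highest. Gpnmb and Adam8 were highest in that replicate too, while Abca1 was lowest in it. Ungrafted NPC in medium passed through a pipette held a median of 46.2 CPM of the same markers, there without scaling for composition. All 22 had a log2FC above 0, against 48.8% of all genes tested, with a median of 2.41. In all 5 rose, against 2.55% of all genes tested, namely Ptprc, the pan-leukocyte phosphatase (log2FC 2.23, SE 0.39, adjusted p = 0.0039), Fcer1g, Cd68, Laptm5 and Lyz2. Of the defining markers, Csf1r, Aif1 and Itgam were at 357 ± 163 CPM, 31.1 ± 32.8 CPM and 108 ± 56.3 CPM in dSCI and 118 ± 90.6 CPM, 4.47 ± 5.50 CPM and 28.0 ± 20.4 CPM in uninjured grafts, and P2ry12, used by resting microglia, was at 12.0 ± 4.40 CPM and 8.68 ± 5.46 CPM. None of the 4 passed the threshold, with adjusted p values of 0.046, 0.049, 0.022 and 0.61. The part of host cells in the phagocyte genes was not tested. The number of markers that rose was 7 without dSCI replicate 5. It was 1, 0, 3, 1 and 15 without uninjured replicates 1 to 5, and 0, 1 and 2 without dSCI replicates 2 to 4. Likewise the phagocyte list gave 10 without dSCI replicate 5, 5, 3, 5 and 4 without uninjured replicates 1 to 4, and 4 without dSCI replicate 2 or 3.

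**Figure D3:**
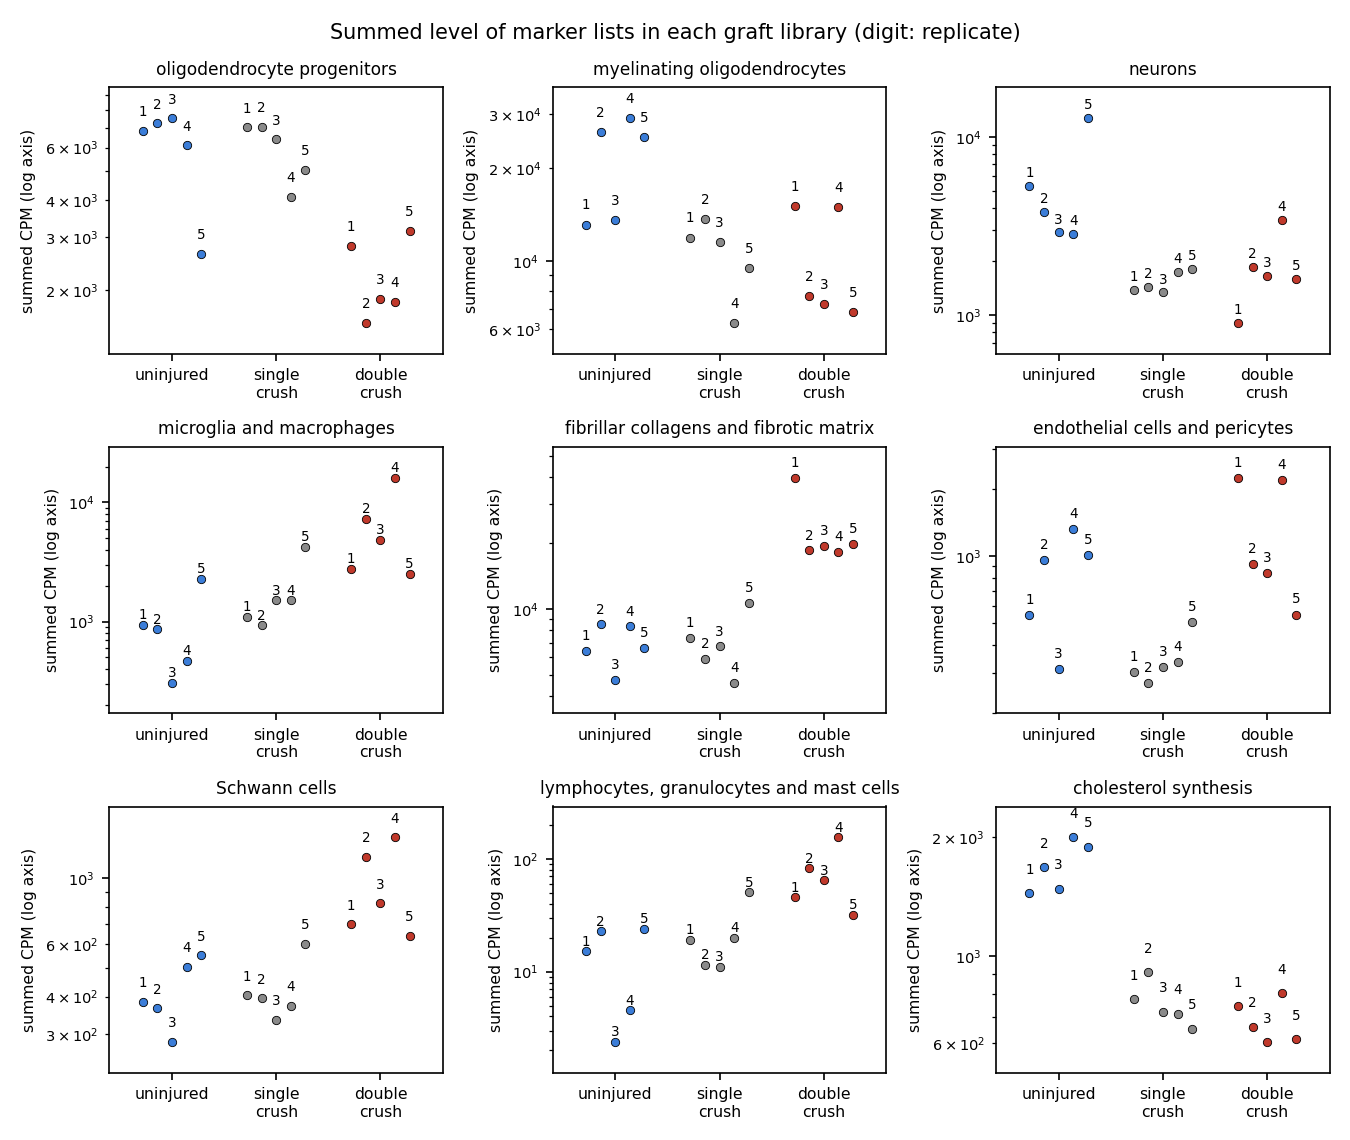
Summed CPM (log axis) of 9 marker lists in each uninjured, SCI and dSCI graft, each point a library. Microglia and macrophage markers lie at 2518–16124 CPM in dSCI and 308–2289 CPM in uninjured grafts, and the oligodendrocyte progenitor sum of 1 uninjured graft, replicate 5 at 2641 CPM, falls inside the dSCI span of 1547–3150.4 CPM.

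Genes of iron handling moved in opposite directions. Ferritin stores iron inside cells, the transferrin receptor brings it in, and haem oxygenase frees it from haem. The ferritin light chain gene Ftl1 (chromosome 7, 45457944–45459886) stood at 822, 824, 716, 817 and 589 CPM in dSCI and 67.2, 143, 67.3, 64.1 and 80.9 CPM in uninjured grafts. It was 8.92-fold higher in dSCI with a wide gap between the groups (log2FC 3.16, SE 0.26, adjusted p = 0.00011). Near-identical copies of Ftl1 in the genome could take some of its reads, so its level is uncertain. The transferrin receptor gene Tfrc (chromosome 16, 32608896–32632794) was at 13.4, 15.1, 20.3, 20.8 and 8.68 CPM in dSCI and 47.3, 47.6, 49.3, 47.1 and 77.6 CPM in uninjured grafts, 3.44-fold lower in dSCI and without overlap (log2FC −1.78, SE 0.26, adjusted p = 0.0018). Hmox1, haem oxygenase 1, rose from 25.2 ± 5.93 CPM to 75.7 ± 41.3 CPM (log2FC 1.59, SE 0.30, adjusted p = 0.0058). Ftl1 and Tfrc were DEGs in all 10 fits that left out 1 library and Hmox1 in 4 of 10. They were the 3 called of the 14 genes listed for iron, haem and antioxidant defence, against 4.19% of all genes tested (median log2FC 0.41). Fth1, the ferritin heavy chain, and Slc40a1, the iron exporter ferroportin, did not pass the threshold (log2FC 0.69, SE 0.27, adjusted p = 0.13 and log2FC 2.20, SE 0.89, adjusted p = 0.14). SCI grafts stood at 338, 418, 509, 539.7 and 710 CPM of Ftl1, where replicate 5 alone overlapped the dSCI grafts. The difference of dSCI from SCI did not pass the threshold (log2FC 0.58, adjusted p = 0.11), nor did it without SCI replicate 5 (log2FC 0.73, adjusted p = 0.024). For Tfrc the SCI grafts, at 13.1, 11.2, 12.4, 14.5 and 12.1 CPM, lay within the span of the dSCI grafts.

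**Figure D4:**
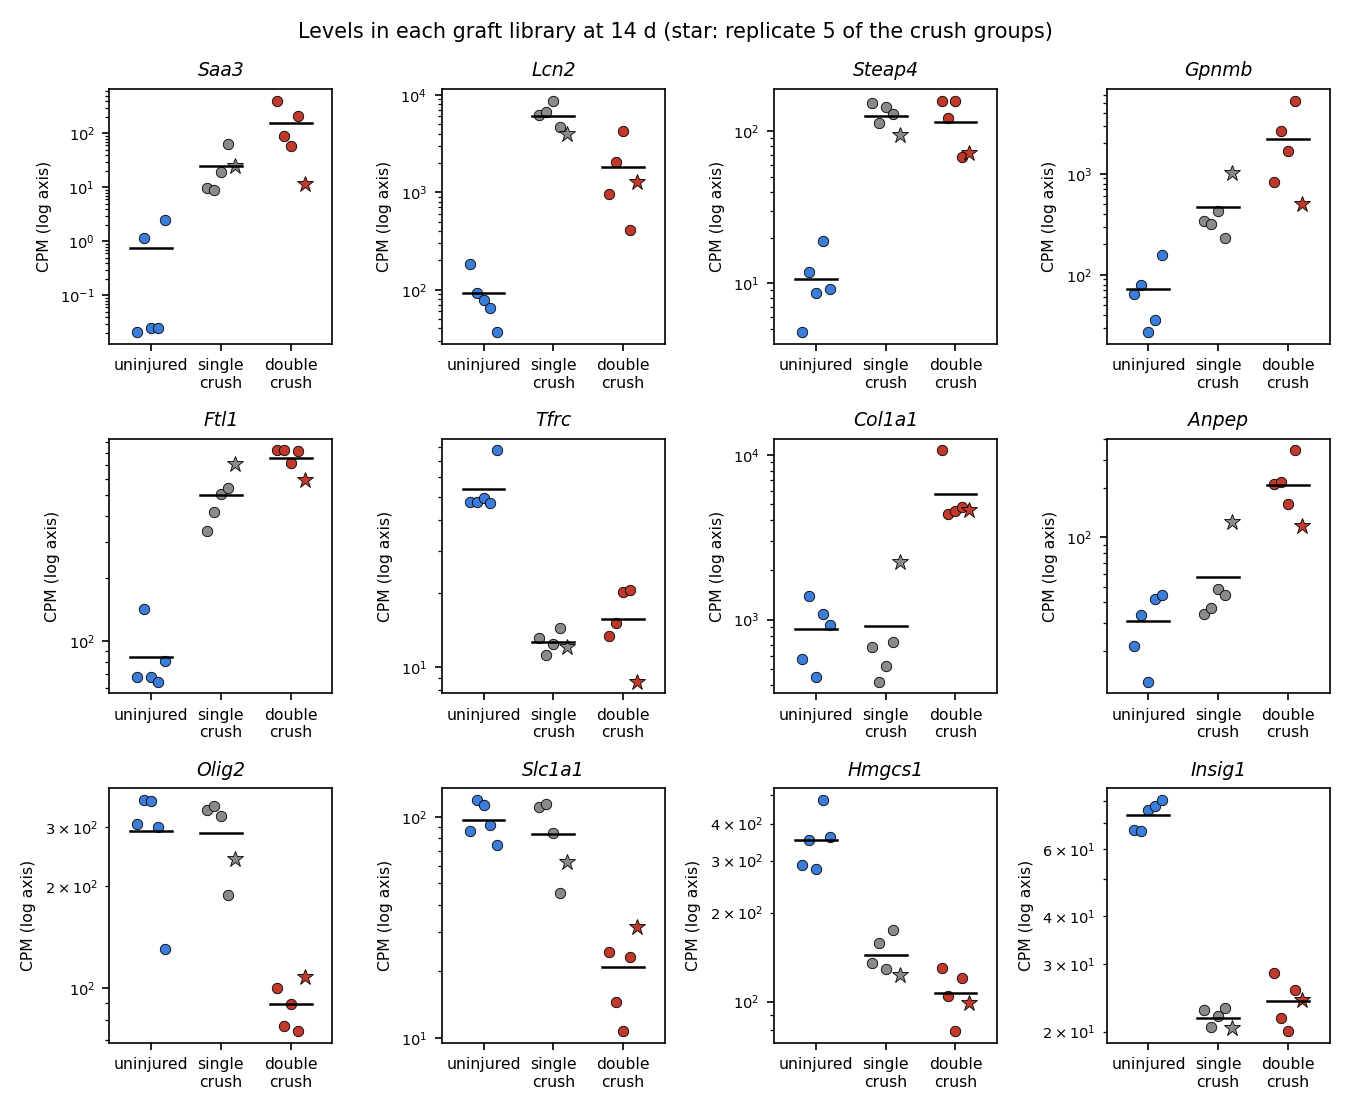
CPM (log axis) of 12 genes in each uninjured, SCI and dSCI graft, with the group mean as a line and a star for replicate 5 of the crush groups. For Ftl1 the dSCI grafts lie at 589–824 CPM and the uninjured grafts at 64.1–143 CPM, for Tfrc at 8.68–20.8 CPM and 47.1–77.6 CPM, and for Olig2 the dSCI grafts, at 74.4–108 CPM, lie below both other groups.

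Genes of fibrotic matrix were higher in dSCI grafts. All 22 genes listed for fibrillar collagens and matrix had a log2FC above 0 (median 1.68), against 48.8% of all genes tested. In all 12 rose, against 2.55% of all genes tested, and for 18 the libraries of the groups did not overlap, against 5.99%. Col1a1 (chromosome 11, 94936224–94953042), which encodes a chain of type I collagen, the main fibre of scar, was at 10682, 4345, 4539, 4809 and 4639 CPM in dSCI and 572, 1382, 446, 1079 and 921 CPM in uninjured grafts. Replicate 1 stood well above the other dSCI grafts, which lay close together and still above every uninjured graft (log2FC 2.72, SE 0.38, adjusted p = 0.0015). Col3a1, the chain of type III collagen, was at 8009, 3129, 4335, 2654 and 4589 CPM in dSCI and 664, 1257, 614, 1090.5 and 824 CPM in uninjured grafts, with the same library highest (log2FC 2.35, SE 0.34, adjusted p = 0.0017). Postn, the matricellular protein periostin, was at 219, 233, 261, 95.1 and 265 CPM and 24.3, 78.1, 62.6, 46.3 and 29.0 CPM (log2FC 2.17, SE 0.35, adjusted p = 0.0029). Ltbp2, a microfibril protein of the family that binds latent TGF-beta, rose further than any of the 22, from 6.12, 7.15, 2.50, 5.05 and 5.67 CPM in uninjured to 126, 96.6, 92.6, 51.0 and 75.2 CPM in dSCI grafts (log2FC 4.06, SE 0.33, adjusted p = 0.00011). These 4 genes were called in all 10 fits that left out 1 library. Fn1, fibronectin, was not separated, since uninjured replicate 4 stood at 808 CPM and dSCI replicate 4 at 753 CPM, and its call held in 2 of 10 (log2FC 1.49, SE 0.29, adjusted p = 0.007). The count of the list was 11 without dSCI replicate 5, 5 and 7 without uninjured replicates 1 and 2, and 6 without dSCI replicate 2 or 3.

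Regulators of epithelial to mesenchymal transition (EMT) rose in part. Anpep (chromosome 7, 79821803–79848210), an aminopeptidase that the study places among both its EMT and its reactivity genes, stood at 212, 218, 161, 343 and 118 CPM in dSCI and 21.5, 33.3, 13.0, 41.8 and 44.4 CPM in uninjured grafts, without overlap (log2FC 2.77, SE 0.36, adjusted p = 0.0011). Replicate 4 was its highest dSCI graft and replicate 5 its lowest, as for Gpnmb and Adam8. Snai1, a transcription factor that drives EMT, was at 71.1, 35.4, 45.8, 32.5 and 29.7 CPM and 10.9, 13.3, 2.96, 10.1 and 8.28 CPM (log2FC 2.23, SE 0.38, adjusted p = 0.0034). With Itga5, an integrin that binds fibronectin, Tgfb1 and its receptor gene Tgfbr2, they were the 5 of 17 EMT genes that rose, against 2.55% of all genes tested (median log2FC 1.48). None fell, and the count was 3 and 2 without uninjured replicates 1 and 2 and 2 and 1 without dSCI replicates 2 and 3. The other transcription factors on the list, such as Snai2 (log2FC 3.08, SE 0.84, adjusted p = 0.032), Twist1 (log2FC 0.75, SE 0.30, adjusted p = 0.14) and Zeb2 (log2FC 0.05, SE 0.17, adjusted p = 0.91), did not pass the threshold. The part of host cells in the EMT genes, Anpep among them, was not tested.

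Markers of fibroblasts and meningeal cells moved in the same direction. Their summed level was 5526, 2577, 2439.7, 3619.5 and 2159 CPM in dSCI and 929, 1927, 672, 2053 and 1719 CPM in uninjured grafts. The lowest dSCI graft, replicate 5, was just above the highest uninjured graft, replicate 4. Of the 16 markers 2 rose, against 2.55% of all genes tested (median log2FC 0.82), Tagln, an actin-binding protein of contractile cells (from 28.5 ± 12.5 CPM to 121 ± 33.8 CPM), and Serpinf1, a secreted serpin (from 282 ± 45.0 CPM to 981 ± 261 CPM), both in all 10 fits that left out 1 library. The defining markers Dcn, Lum and Pdgfrb did not pass the threshold (log2FC 1.07, SE 0.41, adjusted p = 0.12 for Dcn, log2FC 1.74, SE 0.57, adjusted p = 0.069 for Lum and log2FC 1.60, SE 0.43, adjusted p = 0.031 for Pdgfrb). Against SCI grafts Dcn, Lum and Pdgfrb were higher in dSCI (log2FC 2.50, adjusted p = 0.0053, log2FC 2.82, adjusted p = 0.0072 and log2FC 2.34, adjusted p = 0.0051). Those calls held in 4, 3 and 5 of 10 fits that left out 1 library. In uninjured grafts the same markers were well above 0, Dcn at 263, 696, 268, 678 and 462 CPM and Pdgfrb at 18.5, 91.3, 24.9, 90.8 and 71.8 CPM. The part of host fibroblasts in the matrix genes was not tested.

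Genes of the oligodendrocyte lineage were lower in dSCI grafts. Olig2 (chromosome 16, 91225550–91228677), the transcription factor that sets up the lineage, was at 99.7, 76.8, 89.5, 74.4 and 108 CPM in dSCI and 307, 362, 359, 300.1 and 130.1 CPM in uninjured grafts. The dSCI grafts lay within a narrow span, all below the lowest uninjured graft, replicate 5 (log2FC −1.69, SE 0.25, adjusted p = 0.0018). Olig1 (chromosome 16, 91269769–91271939), its partner in the lineage, was at 506, 184, 239, 351 and 533 CPM in dSCI and 1767, 1784, 1835, 1493 and 700.3 CPM in uninjured grafts, again with uninjured replicate 5 nearest to the dSCI grafts (log2FC −2.05, SE 0.34, adjusted p = 0.0032). Sox10 (chromosome 15, 79154913–79164490), which keeps cells in the lineage and activates myelin genes, was at 224, 112, 130.3, 176 and 152 CPM and 377, 445, 526, 439 and 252 CPM (log2FC −1.35, SE 0.23, adjusted p = 0.0034). Olig2 was called in all 10 fits that left out 1 library, and Olig1 and Sox10 in 7 of 10 each.

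In all, 5 of 17 genes listed for oligodendrocyte progenitors fell, against 1.64% of all genes tested, and none rose, with a median log2FC of −1.08. The other 2 were Gpr17, a receptor of cells that have committed to differentiate, and Bcas1, a marker of early myelinating cells, both with an adjusted p of 0.0098 and called in 2 of 10 fits that left out 1 library. Gpr17 overlapped, since uninjured replicate 5 had 225 CPM against a highest dSCI value of 394 CPM. Pdgfra, the growth factor receptor of progenitors, was at 295, 128, 131, 134 and 234 CPM in dSCI and 282, 408, 283, 318 and 147 CPM in uninjured grafts, with overlap (log2FC −0.63, SE 0.30, adjusted p = 0.21). The summed level of the list was 2806, 1547, 1860.5, 1820.2 and 3150.4 CPM in dSCI and 6849, 7244, 7532, 6106 and 2641 CPM in uninjured grafts. Uninjured replicate 5 stood apart here. Without it 10 genes fell, and without dSCI replicate 5 the count was 5. It was 3 without uninjured replicate 1, 3 or 4 or dSCI replicate 4, and 1 without uninjured replicate 2 or dSCI replicate 2 or 3. Ungrafted NPC in medium passed through a pipette held a median summed level of 6434 CPM of this list, there without scaling for composition. The list thus does not separate oligodendrocyte progenitors from the cells that were grafted.

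All 21 genes listed for myelinating oligodendrocytes had a log2FC below 0 (median −1.14), as did 8142 of the 15906 genes tested, and 2 passed the threshold, against 1.64%. These were Hapln2, a link protein of the nodes of Ranvier (from 129 ± 33.6 CPM to 55.0 ± 10.6 CPM, log2FC −1.22, SE 0.21, adjusted p = 0.0038), and Fa2h, the enzyme that makes hydroxylated fatty acids for myelin lipids (from 292 ± 99.7 CPM to 109.7 ± 40.6 CPM, log2FC −1.42, SE 0.30, adjusted p = 0.0096). Mbp, which encodes myelin basic protein, overlapped between the groups (log2FC −0.97, SE 0.35, adjusted p = 0.1). It was at 7384, 3551, 3700.4, 7444 and 3349 CPM in dSCI and 6111, 12178, 6292, 13412 and 11698 CPM in uninjured grafts, with dSCI replicates 1 and 4 above uninjured replicates 1 and 3. Without 1 library the count of the list was 0 to 4, with 0 without uninjured replicate 2 or 4 or dSCI replicate 3, 4 without uninjured replicate 3, and 1 without uninjured replicate 5 or dSCI replicate 2, 4 or 5. SCI grafts held 12.2, 21.4, 10.9, 19.4 and 46.4 CPM of Hapln2, and replicate 5 alone overlapped the dSCI grafts (log2FC 1.32, SE 0.34, adjusted p = 0.03).

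The largest decreases included further membrane and synaptic genes. Sorcs3, a sorting receptor of neurons, was at 2.54, 1.06, 2.43, 4.92 and 3.44 CPM in dSCI and 23.1, 18.0, 20.1, 11.1 and 17.4 CPM in uninjured grafts (log2FC −2.63, SE 0.43, adjusted p = 0.0029). Cacng4, a subunit that steers AMPA receptors and is used by glia as well as neurons, was at 8.13, 7.11, 8.33, 5.84 and 13.4 CPM and 53.6, 59.5, 69.2, 35.2 and 18.9 CPM (log2FC −2.45, SE 0.35, adjusted p = 0.0015). Slc1a1, a transporter of glutamate and cysteine, was at 24.3, 14.6, 10.7, 23.3 and 31.8 CPM and 85.8, 119.5, 113, 91.4 and 74.8 CPM (log2FC −2.20, SE 0.28, adjusted p = 0.0009). With Tmprss5 and Slc35f1 they were called in all 10 fits that left out 1 library, and Ptpn5, a phosphatase of neurons, in 9 of 10 (log2FC −2.37, SE 0.40, adjusted p = 0.0034).

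Neuron markers were lower as a list but rarely passed the threshold. All 21 had a log2FC below 0, with a median of −1.56, and 1 fell, against 1.64% of all genes tested, the RNA-binding protein gene Elavl3 (176, 161, 109, 232 and 139 CPM in dSCI and 301, 418, 340.2, 457 and 451 CPM in uninjured grafts, log2FC −1.27, SE 0.22, adjusted p = 0.0035). The summed level of the 21 was 903, 1859.7, 1656, 3432 and 1603 CPM in dSCI and 5308, 3786, 2912, 2842 and 12720.2 CPM in uninjured grafts. Uninjured replicate 5 was the highest by far and dSCI replicate 4 overlapped the uninjured grafts. The call of Elavl3 was lost without uninjured replicate 2 or 4 or dSCI replicate 2 or 3, and 3 genes passed without dSCI replicate 4. The part of host neurons in these levels was not tested. Rbfox3, Snap25, Nefl and Gad1 had log2FC values of −1.98, −2.31, −1.65 and −1.70 with adjusted p values of 0.012, 0.013, 0.071 and 0.043.

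Cholesterol synthesis held more decreases than any other list. The pathway builds the sterol from acetyl-CoA, first through mevalonate, then through squalene, and last by trimming the ring, and the protein of Srebf2 drives its genes when sterol is scarce. Of 23 genes listed, 12 fell, against 1.64% of all genes tested, and none rose. In all 22 had a log2FC below 0 and for 15 the libraries of the groups did not overlap, against 5.29% of all genes tested, with a median log2FC of −1.38. The summed level of the list was 745, 660.3, 604, 804 and 614 CPM in dSCI and 1441, 1674, 1479, 1998 and 1889 CPM in uninjured grafts, and every dSCI graft was far below every uninjured graft. The count was 12 without dSCI replicate 5 and never below 9 in the fits that left out 1 library.

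Sequence upstream of these genes is shown because the factor that Srebf2 encodes is known to bind a sterol regulatory element, often beside a CCAAT box bound by the factor NF-Y. In the RefSeq promoters (GRCm38.p6, 250 bases before to 50 after the start), 16 of the 23 genes had an entry, and the others, among them Fdps, Stard4, Sqle and Fdft1, had none. The letters CCAAT, on either strand, were found for 15 of the 16 genes, in 15 of their 19 promoters (78.9%), against 12289 of all 32851 promoters (37.4%). The element TCACNCCAC, on either strand, was found for 1 gene, Hmgcs1, against 408 of all promoters (1.24%). A match is a description of the letters and not of a bound site. The promoters of Hmgcs1 (chr13:119690101-119690400, plus strand, 1 sterol element and 4 CCAAT boxes), Msmo1 (chr8:64733529-64733828, minus strand, 3 CCAAT boxes) and Nsdhl (chrX:72918271-72918570, plus strand, 4 CCAAT boxes) follow, 5′ to 3′, with the matches in capitals.
Hmgcs1: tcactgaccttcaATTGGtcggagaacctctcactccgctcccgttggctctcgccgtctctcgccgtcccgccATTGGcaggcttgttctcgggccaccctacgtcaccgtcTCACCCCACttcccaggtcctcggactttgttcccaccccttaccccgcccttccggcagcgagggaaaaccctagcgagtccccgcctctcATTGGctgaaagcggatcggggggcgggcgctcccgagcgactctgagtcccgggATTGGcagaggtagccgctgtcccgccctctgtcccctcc
Msmo1: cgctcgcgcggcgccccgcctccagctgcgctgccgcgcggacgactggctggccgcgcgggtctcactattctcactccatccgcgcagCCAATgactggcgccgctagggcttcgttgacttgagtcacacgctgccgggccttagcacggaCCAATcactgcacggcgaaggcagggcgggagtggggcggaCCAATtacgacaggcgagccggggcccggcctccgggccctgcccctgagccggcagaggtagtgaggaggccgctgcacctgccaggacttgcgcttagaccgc
Nsdhl: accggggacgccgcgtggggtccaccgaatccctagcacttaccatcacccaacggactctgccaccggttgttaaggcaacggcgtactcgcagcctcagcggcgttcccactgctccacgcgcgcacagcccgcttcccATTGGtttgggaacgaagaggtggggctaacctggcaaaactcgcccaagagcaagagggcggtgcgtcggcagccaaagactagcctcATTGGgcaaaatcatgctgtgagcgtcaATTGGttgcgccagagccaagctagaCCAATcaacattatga

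In the mevalonate steps, Hmgcs1 (chromosome 13, 119690351–119708260), HMG-CoA synthase, was at 129.5, 105, 79.4, 120.4 and 99.0 CPM in dSCI and 291, 351, 281, 483 and 362 CPM in uninjured grafts. It was 3.31-fold lower in dSCI, with the groups far apart (log2FC −1.72, SE 0.20, adjusted p = 0.00061). Fdps, which makes farnesyl diphosphate, fell from 51.4 ± 10.3 CPM to 19.4 ± 8.11 CPM, with its call kept in 1 of 10 fits that left out 1 library. In the squalene steps, Fdft1, squalene synthase, fell from 95.9 ± 15.7 CPM to 36.7 ± 8.64 CPM (log2FC −1.38, SE 0.21, adjusted p = 0.0019), and Sqle, squalene epoxidase, was at 24.0, 22.7, 17.7, 27.6 and 35.8 CPM in dSCI and 60.8, 78.3, 74.4, 88.1 and 80.2 CPM in uninjured grafts (log2FC −1.57, SE 0.21, adjusted p = 0.0011). Every dSCI graft was below every uninjured graft for each of these 4 genes.

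Among the enzymes of the last steps, Cyp51, the lanosterol demethylase, fell from 114 ± 25.9 CPM to 42.9 ± 10.6 CPM and Msmo1, a sterol oxidase, from 82.6 ± 16.0 CPM to 31.0 ± 6.68 CPM (log2FC −1.41, SE 0.22, adjusted p = 0.0022 and log2FC −1.40, SE 0.20, adjusted p = 0.0016). Nsdhl, a sterol dehydrogenase, fell from 27.4 ± 4.84 CPM to 12.5 ± 0.751 CPM, a call kept in 2 of 10 fits.

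The regulators fell as well. Srebf2 itself was at 99.4, 85.1, 84.3, 109.7 and 106 CPM in dSCI and 190.2, 224, 186, 239 and 229 CPM in uninjured grafts (log2FC −1.14, SE 0.16, adjusted p = 0.0014). Insig1, which holds the factor back in the endoplasmic reticulum and is also one of its targets, was at 28.5, 21.8, 20.1, 25.7 and 24.2 CPM and 67.4, 66.8, 76.0, 77.7 and 80.8 CPM (log2FC −1.61, SE 0.16, adjusted p = 0.00032). These values stand beside the rise of Abca1, which moves cholesterol out of cells. The summed level of the neuron markers, given above, was also lower in dSCI replicates 1, 2, 3 and 5 than in every uninjured graft. That of the myelin list was 15092, 7716, 7257, 14960.2 and 6809.7 CPM in dSCI and 13129.5, 26202, 13565, 29024 and 25279 CPM in uninjured grafts, with dSCI replicates 1 and 4 above uninjured replicates 1 and 3. The part of these cells in the cholesterol genes was not tested. SCI grafts overlapped dSCI grafts here, at 135, 158, 129, 174 and 123 CPM of Hmgcs1 and 22.7, 20.6, 22.0, 23.1 and 20.4 CPM of Insig1, and the summed level of the list in SCI grafts was 777, 908, 722, 713 and 652 CPM.

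**Figure D5:**
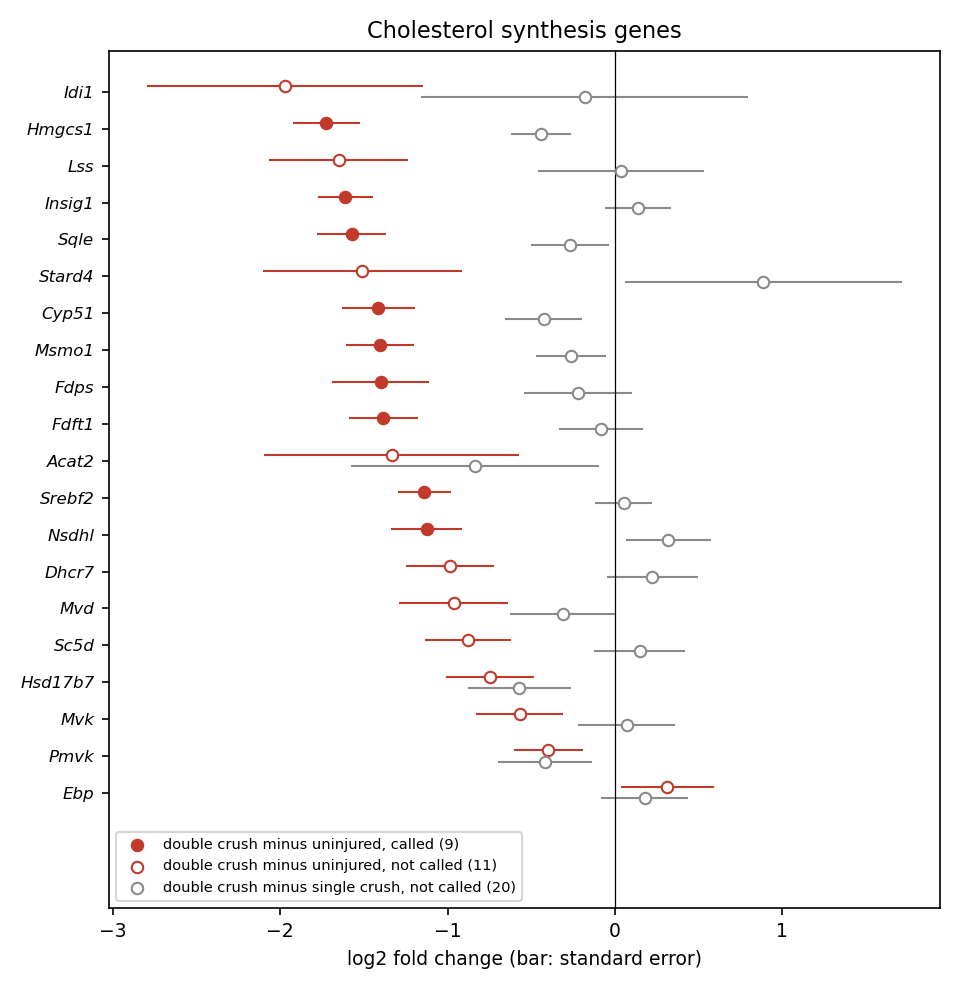
Log2FC (points) ± SE (bars) of 20 cholesterol synthesis genes in dSCI over uninjured grafts and in dSCI over SCI grafts, which share the dSCI libraries. Against uninjured grafts 19 of the 20 genes lie below 0 with 9 called, and against SCI grafts none is called.

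Few members of the immune and secreted gene lists passed the threshold as higher, to be read against 2.55% of all genes tested. In each of these lists every tested member had a log2FC above 0, against 48.8% of all genes tested. The medians were 2.43 for complement, 2.40 for chemokines and cytokines and 2.48 for class II antigen presentation. In edgeR's test 12 of 14 complement genes, 11 of 12 class I, 14 of 24 chemokine and 10 of 16 interferon genes were higher at an unadjusted p under 0.05. DESeq2 called 9, 9, 7 and 6. Of 14 complement genes, C1s1 and C1ra, the proteases of the first complement complex, rose (from 14.0, 24.0, 11.8, 21.4 and 22.4 CPM in uninjured to 165, 136, 126, 78.0 and 91.2 CPM in dSCI grafts for C1s1, log2FC 2.67, SE 0.27, adjusted p = 0.00033, and log2FC 2.21, SE 0.25, adjusted p = 0.00053 for C1ra). Both calls held in all 10 fits that left out 1 library, while C3, the central component, was at 2678 ± 1266 CPM and 1018 ± 402 CPM and missed the threshold (adjusted p = 0.031). Of 24 tested chemokines and cytokines 3 rose, Ccl2, which draws in monocytes, Cxcl16, and Csf1, the growth factor of macrophages (log2FC 2.56, SE 0.53, adjusted p = 0.0089, log2FC 2.07, SE 0.43, adjusted p = 0.0086 and log2FC 0.82, SE 0.15, adjusted p = 0.0053). Of 12 genes of class I antigen presentation, Psmb8, Tap2 and Tapbp rose, and of 16 interferon-response genes, Irf7 and Bst2 (median log2FC 1.55 and 0.98). These counts rested on single libraries. Those of class I were 7 without dSCI replicate 5 and 0 without any other library but uninjured replicate 5, and those of chemokines were 0 to 1 without uninjured replicates 1 to 4 or dSCI replicates 1 to 4. Those of interferon were 4 without dSCI replicate 5 and 0 without uninjured replicate 2 or dSCI replicate 2 or 3 and 1 without uninjured or dSCI replicate 1 or 4, and those of complement were 6 and 5 without uninjured or dSCI replicate 5. None of 7 class II genes passed the threshold in edgeR's quasi-likelihood test or in DESeq2, with 5 at an unadjusted p under 0.05 and a summed level of 277, 633, 550.2, 2514 and 195 CPM in dSCI and 72.2, 344, 23.8, 106 and 149 CPM in uninjured grafts. Of 10 tested genes of lymphocytes, granulocytes and mast cells none passed in either test, with 3 higher at an unadjusted p under 0.05, and their summed level was 32.0–156 CPM in dSCI and 2.37–24.1 CPM in uninjured grafts.

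Cells of peripheral nerve and vessels also had markers in these libraries. The summed level of 12 Schwann cell markers was 642–1375 CPM in dSCI and 281–551 CPM in uninjured grafts, without overlap, and 2 of them rose, against 2.55% of all genes tested. The call of 1 of these, Cldn19, a tight-junction protein, was lost in each of the 10 fits that left out 1 library, with a largest adjusted p of 0.032. None of 18 endothelial and pericyte markers passed the threshold in edgeR's test, with 2 at an unadjusted p under 0.05 and 1 called by DESeq2 (median log2FC 0.60).

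Of 21 genes of cell division none passed in edgeR's test or in DESeq2, and 1 had an unadjusted p under 0.05. Their summed level was 215–330.3 CPM in dSCI and 176–330.2 CPM in uninjured grafts. Single genes rose in a pair of lists, near the share of 2.55% of all genes tested. Of 15 progenitor genes 1 rose, the cyclin gene Ccnd2 (from 86.2 ± 17.3 CPM to 171 ± 35.3 CPM, log2FC 1.00, SE 0.19, adjusted p = 0.0061). The list leaned the other way, with 12 genes at a log2FC below 0 and a median of −0.47. In edgeR's test none passed as lower, with 6 lower and 2 higher at an unadjusted p under 0.05, and DESeq2 called 2 lower and 1 higher. Of 24 genes of glycolysis and hypoxia (median log2FC −0.22) 1 rose, Hk2, the hexokinase induced by growth signals (from 13.1 ± 4.56 CPM to 38.2 ± 6.66 CPM, log2FC 1.55, SE 0.27, adjusted p = 0.0041). Of 14 genes that the study names for the effect of tissue environment, 5 rose and 2 fell, against 2.55% and 1.64% of all genes tested. Since the study chose them on libraries that include these, they are not independent evidence of a direction. They held Myoc, which encodes the secreted protein myocilin (from 42.7 ± 3.11 CPM to 162 ± 98.0 CPM), and Chil1, a secreted chitinase-like protein of reactive astrocytes (from 80.1 ± 49.2 CPM to 521 ± 451 CPM). For both the SCI grafts stood highest, at 400.4 ± 67.8 CPM and 2142 ± 606 CPM.

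Against SCI grafts, which share the dSCI libraries with the comparison above, the DEGs numbered 289 among 15790 genes tested (1.83%), of which 204 (1.29%) were higher in dSCI and 85 (0.538%) lower. This count rested on single libraries. It was 1061 without SCI replicate 5, 480 without dSCI replicate 5, 103, 53, 43 and 30 without dSCI replicates 3, 1 and 4 and SCI replicate 4, and 0 in edgeR's test without SCI replicates 1, 2 or 3 or dSCI replicate 2, where 2996–3311 genes had an unadjusted p under 0.05. Of the lists, 13 of 22 collagen and matrix genes, 7 of 16 fibroblast and meningeal genes and 7 of 17 tested endothelial and pericyte genes were higher in dSCI than in SCI. Of the oligodendrocyte progenitor genes, 6 of 17 were lower. The medians of these lists were 1.93, 2.42, 2.92 and −1.07 against 0.04 over all genes tested. Each of these counts was 0 in some of the fits that left out 1 library, and they reached 17, 10, 12 and 10 in that order. No gene of astrocyte reactivity or cholesterol synthesis passed the threshold in edgeR's test over all libraries. For reactivity 12 of 28 genes were lower and 2 higher than in SCI at an unadjusted p under 0.05, and the fits that left out 1 library called 0 to 3 lower and 0 to 2 higher. For cholesterol synthesis 1 gene was lower and 1 higher at an unadjusted p under 0.05, and those fits called 0.

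Side by side, the members fell into different orders. Col1a1 was at 678, 419.6, 525, 731 and 2238 CPM in SCI grafts, with replicate 5 the highest and all below every dSCI graft (log2FC 2.66, SE 0.46, adjusted p = 0.006). That call held in 2 of 10 fits that left out 1 library. Olig2 was at 337, 345, 324, 189 and 240.4 CPM in SCI grafts, all above every dSCI graft (log2FC −1.69, SE 0.21, adjusted p = 0.0034, called in 6 of 10 such fits), and the SCI and uninjured grafts overlapped. Pecam1, the adhesion molecule of endothelium, was at 1.74, 2.73, 1.90, 7.95 and 1.90 CPM in SCI, 35.0, 34.3, 17.6, 94.5 and 11.1 CPM in dSCI and 20.2, 3.87, 0.574, 42.2 and 34.9 CPM in uninjured grafts. It was higher in dSCI than in SCI (log2FC 3.56, SE 0.61, adjusted p = 0.0059, called in 4 of 10 such fits) and its difference from uninjured grafts did not pass the threshold (log2FC 0.91, SE 0.83, adjusted p = 0.59). Saa3 was at 9.88, 8.81, 19.2, 62.9 and 24.8 CPM in SCI grafts, where dSCI replicates 3 and 5 lay below SCI replicate 4 (log2FC 2.63, SE 0.76, adjusted p = 0.046). For Lcn2, Myoc, Chil1 and Gfap the SCI grafts had the highest mean of the 3 environments, and none of the 4 differences between dSCI and SCI passed the threshold over all libraries, with the smallest adjusted p, 0.016, for Chil1. In the 10 fits that left out 1 library Chil1 was called lower in dSCI in 2, and Gfap and Myoc in 1 each. Without SCI replicate 5 the adjusted p was 0.0058 for Chil1 and 0.0094 for Gfap.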

How the data were processed

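Ribosomes of grafted cells, carrying the HA tag, were pulled down and their RNA sequenced from 5 dSCI, 5 uninjured and 5 SCI grafts recovered at 14 d. Each library is a replicate, grouped by its title. The authors deposited raw read counts per NCBI gene for each library. Per the labels and the study's methods, lanes were joined, reads were trimmed with Trimmomatic, aligned to mm10 with HISAT2 and counted with featureCounts. Both mates of a pair were counted, so counts exceed fragments, and a gene with near copies can lose reads. Totals of 44385710–90830404 counts in the 10 compared libraries set the counting error. Names came from RefSeq (25275 of 27179 identifiers) and GENCODE (18), and 1886 had none.

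Genes were filtered with edgeR's filterByExpr (minimum count 10), scaled by TMM and tested with edgeR 4.0.16 (R 4.3.3, limma 3.58.1), by the quasi-likelihood test with Benjamini-Hochberg adjustment over all tested genes, at an adjusted p below 0.01. All p-values are from that test, 5 libraries a side, unless DESeq2 is named. CPM of grafts, marker sums included, were TMM-scaled over the 15 grafts. Tables used Python 3.11.15, pandas 2.3.3 and scipy 1.17.1. The code was tested on simulated data for dSCI against uninjured grafts (15432 genes), where edgeR found 55 of 97 changes of 4-fold and 2 of 98 of 2-fold with 0 false calls, and DESeq2 1.42.0 found 68, 20 and 21 false.

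Named genes were the 12 largest increases and 12 largest decreases without overlap and averaging 10 CPM or more in the higher group, set markers of each list, its 3 largest called members in each direction, and the gene of largest share. Other members named were chosen after their values were seen. Members and lists were chosen with earlier results of these data known. Alternatives were a threshold of 0.05, DESeq2 and its size factors, no low-count filter, at least 1 CPM in 5 libraries, all 3 environments in 1 fit, the replicate number as a block, leaving out each library, and leaving out the gene of largest share, alone or with dSCI replicate 5. A few listed genes count in the lists and are not reported here by name.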

Additional observations from a re-analysis of the deposited data

Results flagged for a closer look

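In 20 of 170 groups of 5 libraries tested, for the genes named above and library measures, 1 library stood apart from the other 4 by Dixon's ratio at its 95% critical value of 0.71, which chance exceeds in about 1 group in 20. The share of the gene with identifier 100861531 was flagged in dSCI replicate 5, at 35.0% against 4.08–5.67% in the other dSCI grafts.

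Uninjured replicate 5 held 8 of the flags. It was higher than the other uninjured grafts in myeloid genes, with Adam8 at 7.81 CPM against 0.71–2.11, Aif1 at 14.1 CPM against 1.16–4.07, Mmp12 at 12.8 CPM against 0–2.61 and P2ry12 at 18.2 CPM against 4.93–8.03. It was also higher in the neuronal genes Nefl, at 2149 CPM against 319.6–724, and Snap25, at 2762 CPM against 522–1151. Tfrc stood at 77.6 CPM against 47.1–49.3. Olig2 was lower in it, at 130.1 CPM against 300.1–362 in the others.

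Among the other uninjured grafts, replicate 2 was high for both ferritin genes, with Fth1 at 3559 CPM against 1538–1792 and Ftl1 at 143 CPM against 64.1–80.9. Replicate 4 was high for Fn1, at 808 CPM against 338–423, and replicate 1 for Plin2, at 67.1 CPM against 45.2–48.5.

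Among dSCI grafts, replicate 4, which had the highest microglia and macrophage sum, was high for Atp6v0d2 at 154 CPM against 25.6–60.1, Hmox1 at 149 CPM against 47.1–66.3 and Pecam1 at 94.5 CPM against 11.1–35.0, and low for Postn at 95.1 CPM against 219–265. Replicate 1 was high for Col1a1, at 10682 CPM against 4345–4809, and for Pdgfrb, at 317 CPM against 128–172. Replicate 3 was high for Chil1, at 1306 CPM against 203–452.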

How the results depend on the processing

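For dSCI against uninjured grafts, the count of 666 DEGs became 1804 at an adjusted p below 0.05 (977 higher, 827 lower) and 1732 with DESeq2 (995 higher, 737 lower, with all 666 shared). With the 3 environments in 1 fit the count was 973 (551 higher, 422 lower). Without 1 library the count ranged from 197 to 864, with 138–510 higher and 59–354 lower. With the other scaling or filters and without the gene of largest share it was 689–764. For dSCI against SCI grafts, the 289 became 1337 at 0.05 (848 higher, 489 lower), 1276 with DESeq2 (818 higher, 458 lower) and 440 without a filter (325 higher). Without 1 library it ranged from 0 to 1061, with 0–712 higher and 0–349 lower. The causes were not tested.

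Deviations of same-numbered dSCI and uninjured grafts correlated at −0.07, −0.04, 0.09, −0.05 and −0.25. Differently numbered pairs and SCI grafts were not checked in this way, so the values cannot exclude a pairing by replicate number. With the replicate number as a block, 35 genes were DEGs against uninjured grafts (25 higher, 10 lower, all among the 666), and against SCI grafts 0 were higher or lower in edgeR's test, with 4162 at an unadjusted p under 0.05.

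No named DEG changed sign under any alternative. Of 75 named DEGs, 27 were called in all 10 fits that left out 1 library, and all were called by DESeq2. In the simulated data edgeR found 2 of 98 changes of 2-fold, and DESeq2 20. Few genes were changed there, which makes the adjusted threshold stricter than in the real data. These rates therefore do not carry over, although differences of that size can be missed with 5 libraries a side.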
